A study of Mus musculus with 24 samples.

Results

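The comparison described here is the effect of Rsl24d1 siRNAs that was left at day 0 in mouse embryonic stem cells (ESCs) given a rescue, that is, in cells in which doxycycline switches on an ectopic Rsl24d1. Its members were chosen by their labels alone and are 6 of the 24 RNA-seq libraries of the study, 3 from rescued si-Rsl24d1 cells and 3 from rescued control (si-CTL) cells. All 6 come from CGR8, a mouse ESC line, with the vector named RSL24D1_OE in the labels, cultured in serum (FBS) with LIF and doxycycline, so that the arms differ only in the siRNA pool, non-targeting or directed at Rsl24d1. The 6 day 0 libraries without rescue, 3 for each siRNA pool, serve for comparison. They are labelled as carrying an empty vector and got no doxycycline, so vector and drug cannot be told apart between the rescued and the unrescued cells.

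The study describes the ectopic messenger as an siRNA-resistant open reading frame behind a doxycycline-inducible promoter. The files list 1 value per gene symbol, so endogenous and ectopic Rsl24d1 transcripts are added together, and the rescue of the protein was not measured here. The labels give both 48 h and 72 h after transfection for these libraries. The design text calls the triplicates independent without saying whether they were separate cultures, so the p-values below measure the spread between libraries. That spread was estimated within the 8 groups of all 24 libraries, most of which lie outside this comparison.

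RSL24D1 joins precursors of the large (60S) ribosomal subunit in the nucleus and is exchanged for the ribosomal protein RPL24 late in their maturation. When assembly of the large subunit is disturbed, unassembled ribosomal proteins such as RPL5 and RPL11 can bind MDM2, the ubiquitin ligase that keeps the p53 protein unstable, and p53 target genes rise. A separate branch of stress control runs through ATF4, a transcription factor that raises genes for amino acid synthesis, import and transfer RNA charging.

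Levels are given as log2(TPM + 1). TPM expresses a gene's transcripts as a length-corrected share of its library, scaled to the same total in each, and keeps no read number. The depth of each library is therefore unknown. Of 54242 symbols, limma tested the 16447 whose average level in the 24 libraries reached 0.5. A gene is called when its adjusted p is below 0.01 and its change exceeds 1.8-fold, which is 0.848 on the log2 scale, the thresholds of the study. Within these cells, Pou5f1, Sox2, Nanog, Zfp42, Esrrb, Sall4, Klf4, Tdgf1, Utf1 and Dppa5a, which mark pluripotent cells, were present in all 6 rescued libraries, from 4.37 for Klf4 to 11.66 for Dppa5a. No 2 of the day 0 libraries were duplicates of each other (highest correlation 0.99116).

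Rsl24d1 itself (chr9:73113426-73123333 in GRCm38, plus strand, with the predicted gene Gm20509 overlapping it on the same strand) was still lower under rescue. The rescued si-CTL libraries stood at 7.31, 7.24 and 7.21, and the rescued si-Rsl24d1 libraries at 6.7, 6.6 and 6.94. The arms did not overlap, and the third si-Rsl24d1 library was the highest of its arm. The summed transcript fell by 0.50 on the log2 scale (SE 0.07, limma adjusted p = 2.2e-05), from a mean of 151 to 107 TPM, which is 70.9% of the rescued control and short of the fold threshold. Without rescue the same siRNAs lowered it by 1.95 (SE 0.07, limma adjusted p = 3.2e-14), from 141 to 35.7 TPM. The difference between both effects was 1.45 (SE 0.10, limma adjusted p = 1.3e-07). In control cells the summed level was 0.10 higher with rescue than without (SE 0.07, limma adjusted p = 0.29).

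**Figure D1:**
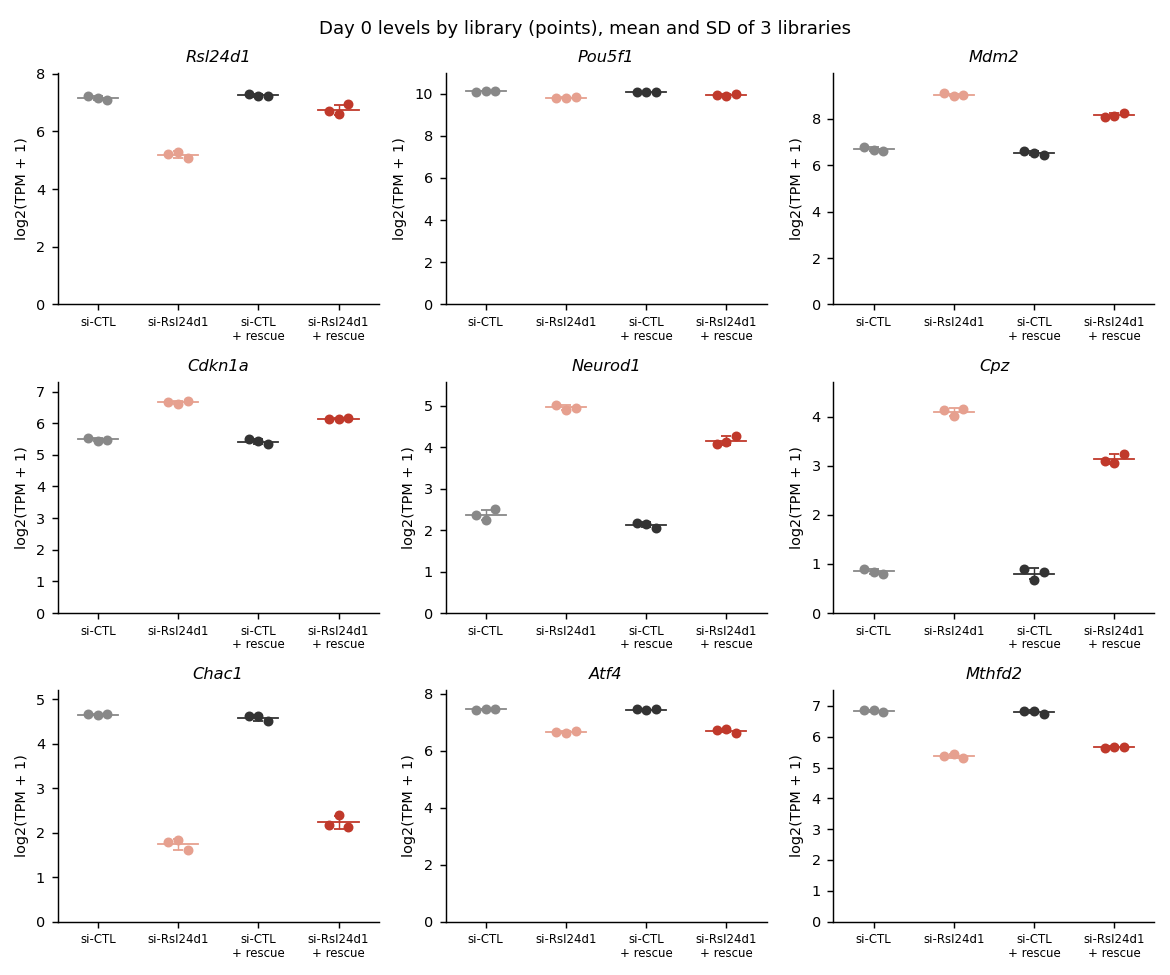
Levels of 9 genes in the 12 day 0 libraries on the log2(TPM + 1) scale, with 1 point per library, a line at the mean and a bar of 1 SD (n = 3). Rescued si-Rsl24d1 libraries lie between the control and the unrescued si-Rsl24d1 libraries for Mdm2, Neurod1 and Cpz, and close to the unrescued si-Rsl24d1 libraries for Atf4 and Mthfd2. The siRNA effect with rescue differed from that without by the same size for Chac1 as for Neurod1.

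Under rescue, si-Rsl24d1 cells had 193 upregulated genes (1.17% of those tested) and 31 downregulated genes (0.188%). Of these, 183 and 29 are annotated as protein coding. The 3 libraries of one arm lay all above or all below those of the other for each of the 224 genes, against 18.0% of all genes tested for higher and 15.0% for lower. Calls and separation come from the same values, so the separation adds no support of its own. By adjusted p alone, without the fold threshold, 1333 genes were higher (8.1%) and 928 lower (5.64%). The calls therefore hold 86.2% upregulated genes, but 59.0% of the genes past the adjusted p rose. The smallest called rise was that of Rgs14 (0.852), next to Mfap4 just outside (0.847), and the smallest called fall was that of Psat1 (-0.849), next to Acss1 (-0.846). The median change of all genes tested was 0.0045.

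The largest rises were seen in genes of different families. Cpz, a zinc carboxypeptidase (chr5:35502218-35525698, minus strand), read 0.89, 0.67 and 0.84 in the rescued si-CTL libraries and 3.10, 3.05 and 3.25 in the rescued si-Rsl24d1 libraries. It rose by 2.34 (SE 0.09, limma adjusted p = 2.8e-13), about 5.05-fold on this scale, with no overlap. Ltb4r2, a leukotriene receptor gene (chr14:55761428-55765138, plus strand), went from 0.96, 0.73 and 0.72 to 3.03, 2.89 and 3.18, a rise of 2.23 (SE 0.09, limma adjusted p = 1.1e-12). Both genes were near the lower end of the range in control cells. Shisal2b (2.09), Ms4a10 (1.87), Ptprv (1.82), Sytl1 (1.76), Scn3b (1.72) and Mlana (1.68) rose as well.

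Developmental regulators were among the largest rises. Neurod1, a neurogenic transcription factor (chr2:79452521-79456751, minus strand, inside the annotated span of Cerkl on the same strand), was at 2.17, 2.16 and 2.06 in rescued si-CTL cells and at 4.08, 4.12 and 4.28 in rescued si-Rsl24d1 cells, a rise of 2.03 (SE 0.08, limma adjusted p = 5.3e-13). Nkx2-9, a homeobox gene (chr12:56611389-56613284, minus strand), moved from 1.5, 1.6 and 1.52 to 3.42, 3.41 and 3.45. Its libraries lay close together within each arm, and the rise was 1.89 (SE 0.07, limma adjusted p = 3.8e-13). Dll1, a ligand of Notch receptors, was more scattered, with 1.94, 1.64 and 1.46 in control and 3.31, 3.46 and 3.67 in si-Rsl24d1 libraries, and rose by 1.8 (SE 0.12). Neurod1 was the only 1 of 12 neural markers tested that was called, and Nkx2-9 and the T-box gene Tbx4 (1.60) were the 2 called among 29 developmental homeobox and related regulators. For that list 9 members rose and 2 fell by adjusted p, beside 8.1% and 5.64% of all genes tested, and the median change was 0.09.

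A gene expressed at a higher level rose by as much. Gpx3, a secreted glutathione peroxidase, went from 4.36, 4.26 and 4.23 to 6.08, 6.02 and 6.04, that is, from a mean of 18.5 to 65.1 TPM (1.76, SE 0.06, limma adjusted p = 3.8e-14). It was the only called member of 22 NRF2 targets tested, a list of antioxidant genes. In that list 2 members rose and 3 fell by adjusted p, beside 8.1% and 5.64% of all genes tested.

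**Figure D2:**
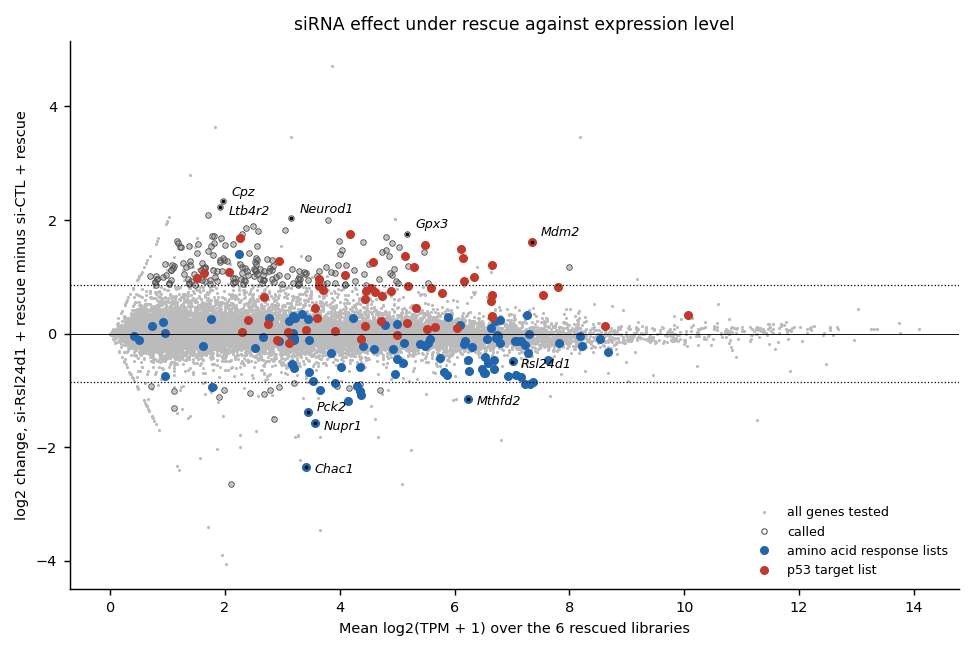
Change under rescue (vertical axis, log2 scale) against the mean log2(TPM + 1) of the 6 rescued libraries for the 16447 genes tested, with called genes ringed, dotted lines at the 1.8-fold threshold and 2 groups of lists in colour. Points far from 0 without a ring did not pass the adjusted p. The p53 target list lies mostly above 0, while the amino acid response lists hold 14 of the 31 called falls and 103 of the genes tested.

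The p53 target list held the largest share of calls among the 49 gene lists. Of its 57 members, all tested, 18 were called higher and none lower, beside 1.17% and 0.188% of all genes tested. By adjusted p 39 rose and none fell, beside 8.1% and 5.64%. The median change was 0.68. Mdm2, itself a p53 target (chr10:117688875-117710758, minus strand), was at 6.61, 6.52 and 6.45 in rescued si-CTL libraries and at 8.08, 8.11 and 8.26 in rescued si-Rsl24d1 libraries. That is a mean of 91.4 against 284 TPM, a rise of 1.62 (SE 0.06, limma adjusted p = 2.3e-13). Cdkn1a, the cyclin-dependent kinase inhibitor p21, moved less, from 5.50, 5.43 and 5.33 to 6.14, 6.12 and 6.17, and its rise of 0.72 (SE 0.05, limma adjusted p = 1.0e-09) stayed under the fold threshold although the libraries did not overlap.

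Other p53 targets that were called act in different ways. Zfp365 (1.75) guards against replication damage, Cd80 (1.69) encodes a co-stimulatory surface protein and Dcxr (1.57) a carbonyl reductase. Among genes of cell death, Apaf1 (1.04, SE 0.08), the core of the apoptosome, and Pmaip1 (0.96, SE 0.06), the BH3-only protein NOXA, were the 2 called of 28 Bcl2 family and apoptosis genes. Both are also in the p53 list. Of all genes tested, 1.17% were called higher and 0.188% lower. Bbc3, the BH3-only protein PUMA, rose by 0.45 and Hrk, another BH3-only gene, fell by 0.71, both under the fold threshold. The median of that apoptosis list was -0.02.

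Trp53 itself was not past the test. Its messenger was at 8.72, 8.64 and 8.64 in rescued si-CTL and 8.74, 8.72 and 8.86 in rescued si-Rsl24d1 libraries (0.11, SE 0.05, limma adjusted p = 0.13). Of 13 genes listed as p53 and its regulators, 3 were called higher, beside 1.17% of all genes tested. They were Mdm2, Trp73 (1.25), the p53 relative p73, and Trp53inp1 (1.00), a p53-induced nuclear protein. By adjusted p 6 of the 13 rose and 1 fell, beside 8.1% and 5.64% of all genes tested. Cyclin G1 (Ccng1) rose by 0.81, under the fold threshold. Rpl5, in the same list for its binding to MDM2, fell by 0.28 (SE 0.05, limma adjusted p = 1.7e-04).

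The downregulated genes were fewer and leaned towards amino acid metabolism. Chac1, which encodes a glutathione-degrading enzyme (chr2:119351229-119354381, plus strand), stood at 4.62, 4.63 and 4.51 in rescued si-CTL libraries and at 2.18, 2.40 and 2.12 in rescued si-Rsl24d1 libraries. It fell by 2.36 (SE 0.19, limma adjusted p = 2.0e-08), to 16.1% of the control TPM. Nupr1, a stress-induced chromatin protein (chr7:126623249-126630861, minus strand), went from 4.20, 4.43 and 4.42 to 2.73, 2.98 and 2.62, a fall of 1.57 (SE 0.12, limma adjusted p = 1.4e-08). Neither gene's arms overlapped. Pck2, the mitochondrial phosphoenolpyruvate carboxykinase (chr14:55540266-55551242, plus strand), read 4.16, 4.28 and 3.98 in control and 2.72, 2.75 and 2.80 in si-Rsl24d1 libraries, and fell by 1.38 (SE 0.11, limma adjusted p = 1.1e-08).

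Of the 15 largest falls, 8 were in 4 lists that follow the amino acid response, and so were 14 of all 31 downregulated genes. These lists hold 103 of the 16447 genes tested and were written with earlier results of these data known, so the counts are a description. Trib3, a pseudokinase that damps ATF4, fell by 1.18 and Mthfd2, a mitochondrial enzyme of one-carbon metabolism, by 1.16, from 6.84, 6.85 and 6.75 to 5.62, 5.68 and 5.67. The alanine transaminase gene Gpt2 (-1.08), the proline synthesis gene Aldh18a1 (-1.0) and the neutral amino acid transporter gene Slc1a4 (-0.99) completed the 8. Outside those lists, the transcription factor gene Mef2b, which overlaps Borcs8 on the same strand, fell by 1.5, the protease gene Napsa by 1.07, the AP-1 repressor gene Jdp2 by 1.05, the peptide hormone gene Adm2 by 1.01 and Ubap1l by 1.11. Lst1 (-1.0, limma adjusted p = 0.0084) was the least secure of the 15, with 2.36, 2.73 and 2.37 in control against 1.96, 1.11 and 1.39, and it lost its call under most of the alternative settings.

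Atf4 itself fell under rescue. The rescued si-CTL libraries read 7.44, 7.41 and 7.44 and the rescued si-Rsl24d1 libraries 6.73, 6.74 and 6.63, so that the mean went from 172 to 103 TPM (-0.73, SE 0.10, limma adjusted p = 1.1e-05), under the fold threshold. Among 27 regulators of the ATF4 and stress response, 5 were called lower and 1 higher, with a median of -0.13. By adjusted p 13 fell and 3 rose, beside 5.64% and 8.1% of all genes tested. The 1 called higher was Ddit4, an inhibitor of mTORC1 signalling (1.21) that is also in the p53 list.

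Enzymes of serine and one-carbon metabolism were lower in large number. Of 26 tested, 5 were called lower and 1 higher, and 18 fell by adjusted p (5.64% of all genes tested did), with a median of -0.39. The called falls included, beside Pck2, Mthfd2 and Aldh18a1, the proline synthesis gene Pycr1 (-0.92, SE 0.08). The 1 member that rose was Aldh1l1, a cytosolic formyltetrahydrofolate dehydrogenase, from 1.5, 1.65 and 1.47 to 2.91, 2.85 and 3.08 (1.41, SE 0.08).

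Of 23 cytosolic transfer RNA synthetase genes, 13 fell and none rose by adjusted p, beside 5.64% and 8.1% of all genes tested. The 2 called lower were Nars (-0.89) and Sars (-0.89), which charge asparagine and serine transfer RNAs. Aars (-0.74) and Yars (-0.72) followed. The median was -0.22. The mitochondrial synthetases gave 1 lower and 1 higher of 17 by adjusted p and no call. Of 27 amino acid transporter genes, 7 fell and 1 rose by adjusted p, and Slc1a4 and the glycine transporter gene Slc6a9 (-0.93, SE 0.11) were called.

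Of 27 genes of the unfolded protein response of the endoplasmic reticulum, 19 did not pass the adjusted p, 7 rose and 1 fell, beside 8.1% and 5.64% of all genes tested, with a median of 0.09. The mean of the list overlapped between the arms, at 5.39, 5.32 and 5.3 in rescued si-CTL and 5.35, 5.37 and 5.5 in rescued si-Rsl24d1 libraries. The chaperone gene Hspa5 rose from 7.82, 7.72 and 7.66 to 8.07, 8.13 and 8.28 (0.43, SE 0.05, limma adjusted p = 6.8e-06), whereas Herpud1, a component of protein degradation at that membrane, fell from 4.62, 4.57 and 4.71 to 3.58, 3.77 and 3.66 (-0.96, SE 0.10) and was the only call.

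**Figure D3:**
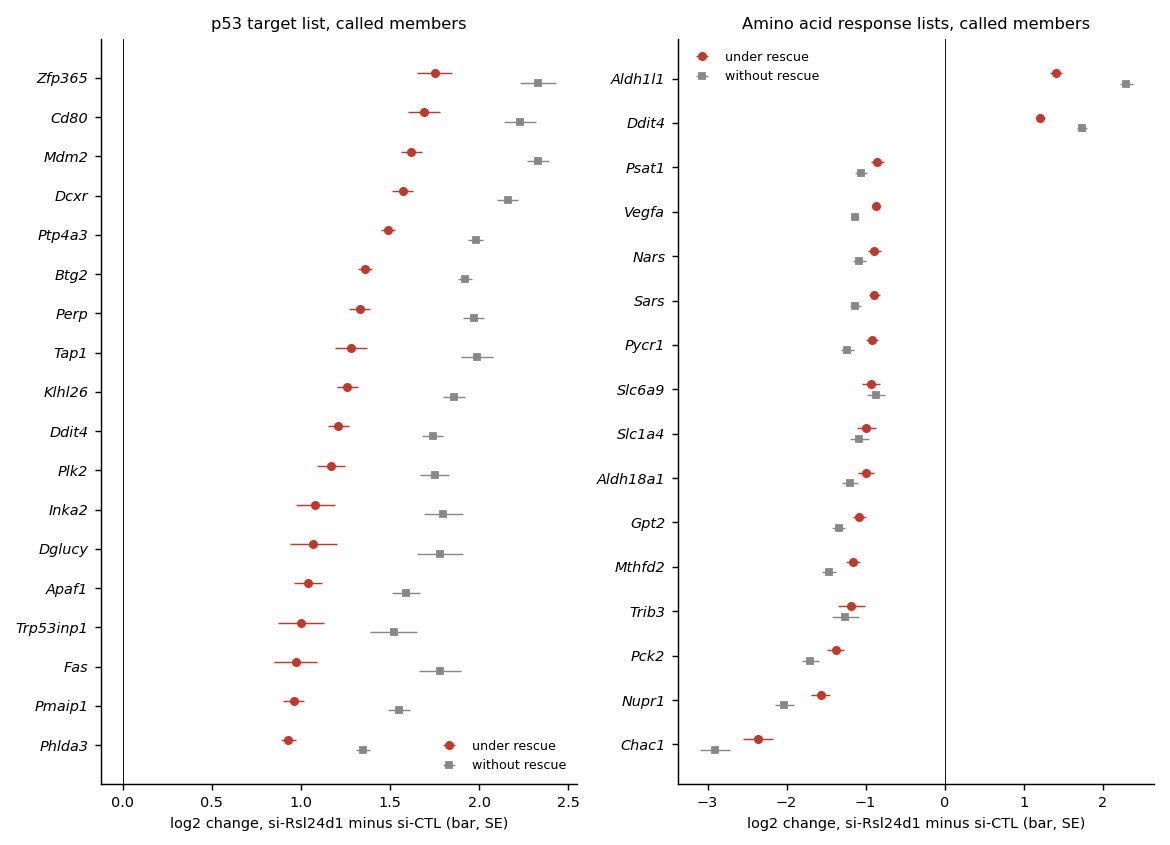
Change with its SE for the called members of the p53 target list (left) and of the 4 amino acid response lists (right), under rescue (circles) and without rescue (squares). All 18 p53 targets changed more without rescue, while in the right panel the bars of Slc6a9, Slc1a4 and Trib3 overlap.

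ATF4 binds DNA with a C/EBP partner at a composite element whose core was searched here as TGATGNAA on both strands, a choice made with the results known. Promoter sequences of RefSeq on GRCm38.p6, from 250 bases before to 50 bases after the start, were found for 27 of the 31 downregulated genes, and 8 of those held the core (29.6%). It was in 5 of 150 upregulated genes with a promoter (3.33%), in 2.68% of 11489 genes tested that had one and in 4.51% of all 27025 promoters. By list, it was in 5 of 16 cytosolic synthetase promoters (31.2%), 5 of 24 of the ATF4 regulators (20.8%), 3 of 22 of the serine and one-carbon enzymes (13.6%), 2 of 20 of the transporters (10.0%) and 1 of 45 of the p53 targets (2.22%). These are matches of letters, not measured binding. A full p53 site without spacer, searched in the same way, had no match in the promoters of the 150 upregulated genes and 1 among the 11489, so this window tells nothing about p53.

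The 8 downregulated genes with a match were Chac1, Nupr1, Pck2, Trib3, Jdp2, Herpud1, Pycr1 and Slc1a4. For 6 of them the match lay upstream of the RefSeq start, which for Nupr1 and Jdp2 lies inside the longer gencode span used for positions elsewhere. For Nupr1 it falls in an exon of a longer gencode transcript and is not shown. For the rest of these 6 the 100 bases around it are printed on the strand of the gene, with the match in capitals, to let the element be read beside the falls above. Their windows are chr2:119351009-119351108 (Chac1), chr8:94386277-94386376 (Herpud1), chr11:120643792-120643891 (Pycr1), chr12:85599316-85599415 (Jdp2) and chr14:55540123-55540222 (Pck2).
Chac1: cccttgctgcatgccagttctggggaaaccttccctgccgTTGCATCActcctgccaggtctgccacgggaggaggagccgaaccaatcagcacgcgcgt
Herpud1: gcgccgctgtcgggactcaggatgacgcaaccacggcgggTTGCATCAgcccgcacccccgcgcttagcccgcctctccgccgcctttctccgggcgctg
Pycr1: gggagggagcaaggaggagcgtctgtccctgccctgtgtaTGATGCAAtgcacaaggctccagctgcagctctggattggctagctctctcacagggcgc
Jdp2: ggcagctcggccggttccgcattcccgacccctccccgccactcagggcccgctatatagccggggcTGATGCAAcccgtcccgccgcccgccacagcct
Pck2: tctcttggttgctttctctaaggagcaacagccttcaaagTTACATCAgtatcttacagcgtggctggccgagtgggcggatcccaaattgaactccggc
Chac1, Herpud1 and the match of Nupr1 share the letters TTGCATCA, which are the reverse complement of the TGATGCAA of Pycr1 and Jdp2. Pck2 has TTACATCA.

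Messengers of the ribosome itself moved little. Of 47 large subunit protein genes none was called, and by adjusted p Rpl5 (-0.28), Rpl3 (-0.25) and Rpl12 (-0.24) fell and none rose. Of 32 small subunit protein genes none passed the adjusted p, and the wide range of Rps27 (6.22, 7.19 and 4.85 in control against 7.73, 7.46 and 6.33) gave a change of 1.09 with an SE of 0.80. Rpl24, which takes the place of RSL24D1 on the subunit, read 10.64, 10.65 and 10.78 in control and 10.79, 10.72 and 10.61 in si-Rsl24d1 libraries (0.02, limma adjusted p = 0.90). Rpl8 (0.01, limma adjusted p = 0.93) and Eif6 (-0.10, limma adjusted p = 0.097), which leaves the late precursor in the cytoplasm, also missed the test. Among 22 late pre-60S maturation factors, Rsl24d1, Gtpbp4 (-0.19), Bccip (-0.16) and the stalk assembly factor Mrto4 (-0.15) fell by adjusted p. In the assembly factor lists, 3 rose and 2 fell of 40 for the large subunit, and 1 rose and 3 fell of 47 for the small subunit. Of all genes tested, 8.1% rose and 5.64% fell by adjusted p. The 1 call among 27 RNA polymerase I and III genes was Polr3gl, a polymerase III subunit, at 3.23, 3.49 and 3.48 in control and 2.48, 2.48 and 2.44 in si-Rsl24d1 libraries (-0.93, SE 0.10).

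Of 4 core pluripotency factors, 2 were lower by small amounts and 2 did not pass the adjusted p. Pou5f1, which encodes OCT4, read 10.08, 10.10 and 10.08 in rescued si-CTL and 9.93, 9.91 and 9.96 in rescued si-Rsl24d1 libraries (-0.15, SE 0.04, limma adjusted p = 0.0061). Nanog went from 7.46, 7.40 and 7.36 to 7.20, 7.19 and 7.27 (-0.19, SE 0.04, limma adjusted p = 0.0011). The arms did not overlap for either gene, and the means went from 1090 to 978 TPM for Pou5f1 and from 169 to 148 TPM for Nanog. Sox2 (0.01, limma adjusted p = 0.95) and Sall4 (0.15, limma adjusted p = 0.52) missed the test.

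The naive pluripotency list went further. Of 33 members, 10 fell and 3 rose by adjusted p, beside 5.64% and 8.1% of all genes tested. The median was -0.18, and no fall reached the fold threshold. Esrrb, an orphan nuclear receptor, read 7.13, 7.03 and 6.92 against 6.33, 6.34 and 6.46 (-0.65, SE 0.08, limma adjusted p = 9.7e-06), and Zfp42, also named Rex1, 9.28, 9.25 and 9.16 against 8.72, 8.72 and 8.76 (-0.50, SE 0.05). Tcl1 (-0.69) and Nr0b1 (-0.55) fell likewise. The 1 member called higher was Trp53inp1, which is also among the p53 regulators.

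Of 29 genes of the formative and post-implantation epiblast, 12 rose by adjusted p, beside 8.1% of all genes tested, none fell, 17 did not pass, and the median was 0.21. Wnt8a, a Wnt ligand, went from 1.71, 1.76 and 1.66 to 3.13, 3.15 and 3.12 (1.42, SE 0.08, limma adjusted p = 7.3e-11), and the zinc finger gene Sall2 from 2.45, 2.35 and 2.39 to 3.24, 3.33 and 3.59 (0.99, SE 0.09). These 2 were called. The POU factor gene Pou3f1 (0.78) and Nodal (0.70), the TGF-beta family ligand, rose under the fold threshold. In the Wnt pathway list, Wnt8a and Wnt3 (0.95) were the 2 called of 38, and 8 rose and 1 fell by adjusted p.

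Markers of other lineages were set beside these changes, and beside the 8.1% of all genes tested that rose and the 5.64% that fell by adjusted p. None of 16 primitive endoderm markers tested passed the adjusted p, 2 of 14 trophectoderm markers rose, 3 rose and 1 fell of 12 primitive streak and mesoderm markers, 1 rose and 3 fell of 12 neural markers, and 3 of 14 fibroblast and feeder markers fell. Summed over each list, the primitive streak markers reached 34.3 to 38.9 TPM in rescued si-CTL and 38.4 to 42.3 in rescued si-Rsl24d1 libraries, the neural markers 248 to 261 and 241 to 249, and the fibroblast markers 335 to 387 and 296 to 347. The naive list summed to 6810 to 6940 and 6020 to 6320. Among the fibroblast markers Col1a1, a collagen gene, went from 4.31, 4.26 and 3.95 to 3.30, 3.31 and 3.64 (-0.76, SE 0.15). The part of other cells in these changes was not tested, and in bulk RNA fewer cells of a type and less RNA per cell cannot be told apart.

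The 2-cell stage list, genes that a small fraction of ESCs express in bursts, rose without a call. Of 24 tested, 13 rose and none fell by adjusted p, beside 8.1% and 5.64% of all genes tested. The median was 0.39, and the summed level went from between 38.3 and 43.5 TPM to between 69.0 and 73.0. Zscan4f read 3.02, 3.12 and 3.05 in control and 3.88, 3.96 and 3.76 in si-Rsl24d1 libraries (0.80, SE 0.10), and Zscan4c rose by 0.77. These genes are near-identical copies that can share reads, so their single values are uncertain.

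By adjusted p, 8.1% of all genes tested rose and 5.64% fell, and the Polycomb and cell cycle counts stand beside these. Of 13 genes of Polycomb repressive complex PRC2, the core subunit gene Eed (-0.24, SE 0.04) and the accessory subunit gene Phf19 (-0.49, SE 0.12) fell, while Ezh2 (-0.17, limma adjusted p = 0.043) and Suz12 (-0.19, limma adjusted p = 0.11) missed the test. Of 23 PRC1 genes, 5 rose and 2 fell by adjusted p, and none was called. In the cell cycle list 6 rose and 5 fell of 44, and Rb1, the retinoblastoma gene, was the 1 called, from 2.82, 2.76 and 2.73 to 4.03, 4.07 and 4.21 (1.33, SE 0.09). Fosl1, an AP-1 subunit gene, was the 1 called of 28 FGF-ERK pathway genes (1.33, SE 0.11), and Mxd4, a repressor that competes with Myc for Max, the 1 called of 13 Myc network genes (0.91, SE 0.08).

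Of 31 lysosome and autophagy genes, 10 were lower and 2 higher by adjusted p, beside 5.64% and 8.1% of all genes tested, 19 did not pass, and the median was -0.11. The only call was Hexa, a subunit of beta-hexosaminidase, which fell from 5.21, 5.23 and 5.15 to 4.18, 4.24 and 4.19 (-0.99, SE 0.04, limma adjusted p = 1.6e-12). The cathepsin genes Ctsa (-0.57) and Ctsl (-0.43) and the sialidase gene Neu1 (-0.40) fell under the fold threshold.

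**Figure D4:**
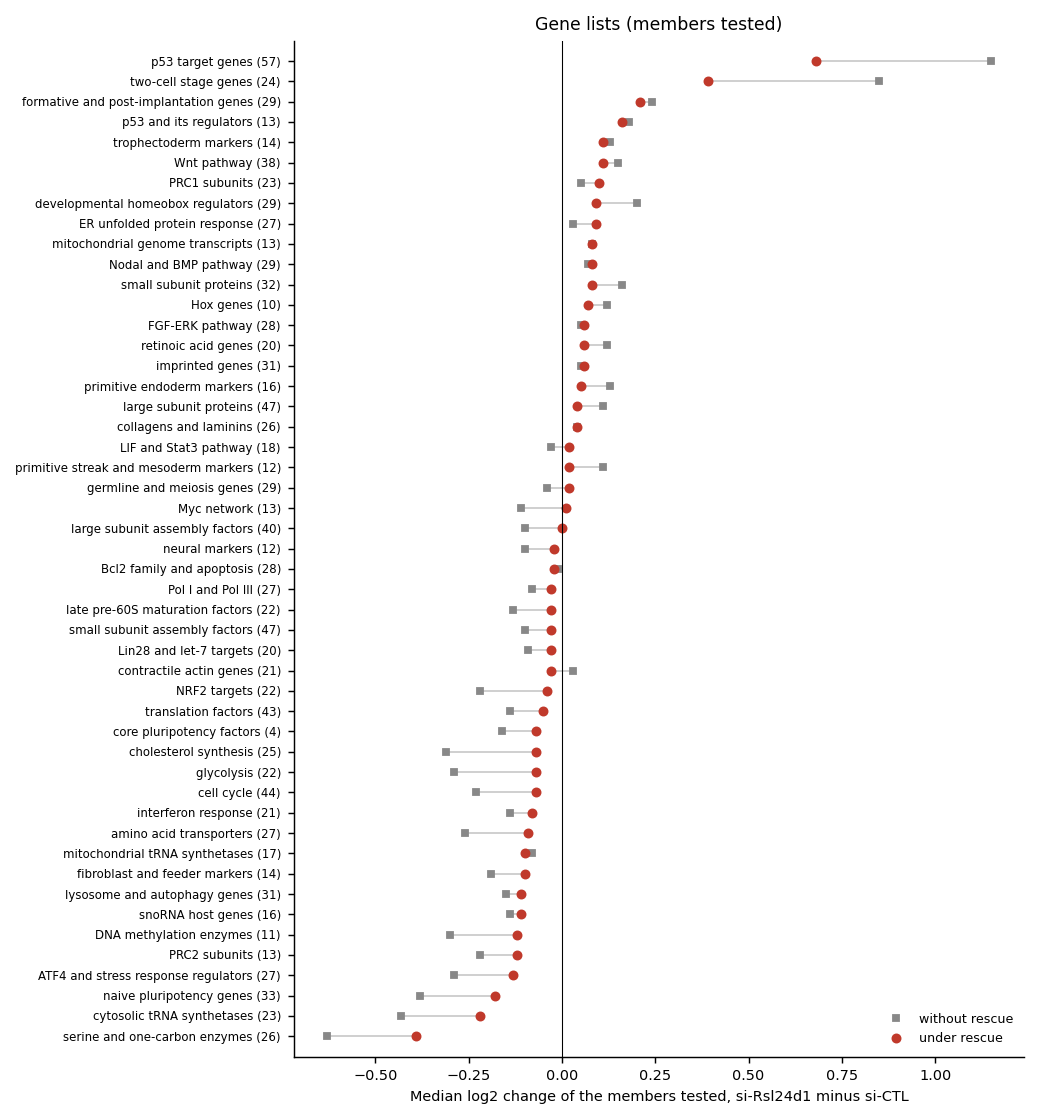
Median change of the members tested in each gene list, under rescue (circles) and without rescue (squares), with a vertical line at the median of all genes under rescue. The p53 target list is highest (0.68 under rescue, 1.15 without) and the serine and one-carbon list lowest (-0.39 and -0.63).

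How much of the siRNA effect the rescue left was read against the cells without rescue, in which 687 genes were called (4.18%), 560 higher (3.4%) and 127 lower (0.772%), and 5008 passed the adjusted p alone (30.4%). Of the 224 genes called under rescue, 219 were called there too and in the same direction, which is 97.8% of the rescue calls and 31.9% of the calls without rescue. The 5 others were 1700066B17Rik, Gm14308, Gm40848, Gm50180 and Sprr2a3, all unnamed transcripts or clones but for Sprr2a3, a member of a family of near-identical genes. Of the 224, 214 changed more without rescue. The arms with and without rescue have separate control libraries.

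Over the 687 genes called without rescue, the change under rescue was a median 63.2% of that without. Taken for each rescued si-Rsl24d1 library against the mean of the rescued si-CTL libraries, the medians were 59.9%, 60.1% and 68.9% (SD 5.1, n = 3). The share was 63.5% for the 560 genes that rose, ranging from 59.8% to 69.7% over the 3 libraries, and 58.5% for the 127 that fell, with 61.5%, 60.4% and 56.9%. The third library thus had the highest share for the rises and the lowest for the falls. Summed Rsl24d1 was highest in it, but so was its median of ratios size factor, at 1.002 against 0.930 and 0.935. A typical gene thus read higher in that library, and what set its shares apart was not tested. These genes were chosen by their change without rescue, so the share is a description and was not tested, and against the si-CTL cells without rescue as control it was 55.8%. Rescued and unrescued si-CTL cells differ by a median shift of -0.123 over all genes, which enters that second share. Rsl24d1 itself kept 25.8% of its fall.

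The difference between the effects with and without rescue was tested as an interaction, and 343 genes passed the adjusted p (2.09%). The effect was smaller in size under rescue for 339 of them and larger for 4, and for 20 its direction differed between the comparisons, 3 of them past the adjusted p in both. Of the genes called under rescue, 85 of the 193 upregulated and 2 of the 31 downregulated, Hexa and Lrrc34 (both chosen here after their values were seen), passed. Those genes were selected for a change that stayed large under rescue. Of the genes called without rescue, 164 of the 560 upregulated and 30 of the 127 downregulated passed. The count depends on the libraries that set the spread: it was 78 when only the 12 day 0 libraries were fitted, and 183 without the third unrescued si-Rsl24d1 library.

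**Figure D5:**
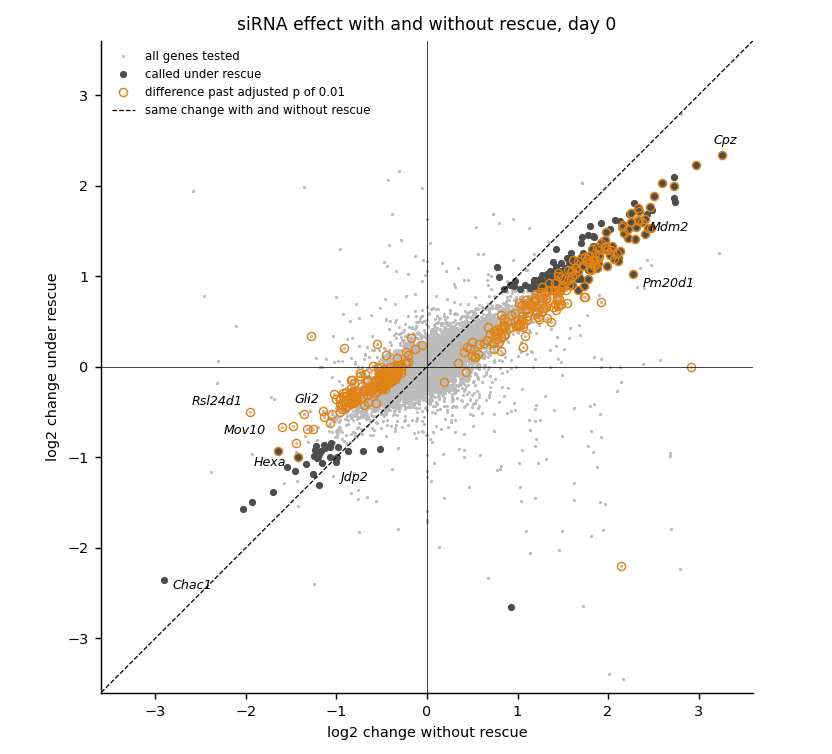
Change under rescue (vertical axis) against change without rescue (horizontal axis), both on the log2 scale, for the genes tested, with 10 genes beyond the plotted range. Called genes (dark) and genes whose effects differ (orange rings) lie mostly between the dashed line of equal change and the horizontal line at 0, and the downregulated gene Jdp2 lies near the dashed line.

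Among p53 targets, 23 of 57 passed this test, beside 2.09% of all genes tested, and the median change was 0.68 with and 1.15 without rescue. Mdm2 rose by 0.71 less under rescue (limma adjusted p = 6.9e-05) and kept 69.5% of its rise. Cdkn1a rose by 0.46 less (limma adjusted p = 4.8e-04). Of the 32 p53 targets called without rescue, 21 passed, beside 194 of all 687 genes called without rescue. These 32 kept a median 65.5% of their change, beside 63.5% for all genes that rose without rescue and were called.

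In the 4 amino acid response lists together, 5 of 103 passed, beside 2.09% of all genes tested. They were 2 of the ATF4 and stress response regulators and 3 of the serine and one-carbon enzymes. Of the 25 members called without rescue, 4 passed, beside 194 of all 687 genes called without rescue. These 25 kept a median 79.1%, beside 63.2% over the 687. Chac1 fell by 2.91 without and 2.36 with rescue, a difference of 0.56 with an SE of 0.27 (limma adjusted p = 0.30). Trib3 (0.08, SE 0.24) and Slc1a4 (0.08, SE 0.16) had differences smaller than their SE, as did Jdp2 (-0.04, SE 0.13), which is not in these lists, and Atf4 itself differed by 0.07 (SE 0.14, limma adjusted p = 0.87). A p above the threshold does not show that the effects were equal, and whether the share left differs between the amino acid response and p53 lists was not tested.

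The naive pluripotency list had a median of -0.18 with and -0.38 without rescue, and 6 of 33 members passed the test of the difference, beside 2.09% of all genes tested. Of the 6 members called without rescue, 3 passed, beside 194 of all 687 genes called without rescue. Zfp42 fell by 0.46 less (limma adjusted p = 4.8e-04), Tcl1 by 0.57 less (limma adjusted p = 6.5e-04) and Nr0b1 by 0.59 less (limma adjusted p = 0.0036). For Nanog the difference was 0.21 (limma adjusted p = 0.026) and for Pou5f1 0.15 (limma adjusted p = 0.11), neither past the threshold. Cholesterol synthesis and glycolysis genes, with medians of -0.31 and -0.29 without rescue, had medians of -0.07 and -0.07 under rescue, and 2 of 25 and 1 of 22 passed.

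The largest differences in which the fall was smaller under rescue, apart from 2 predicted transcripts, were those of Rsl24d1, Mov10 and Gli2. Mov10, an RNA helicase gene (chr3:104794836-104818563, minus strand), read 5.69, 5.60 and 5.52 in rescued si-CTL and 4.89, 4.84 and 5.10 in rescued si-Rsl24d1 libraries. Its fall was 0.66 with and 1.60 without rescue (difference 0.94, SE 0.12, limma adjusted p = 1.2e-04). Gli2, a transcription factor of Hedgehog signalling, fell by 0.52 with and 1.36 without (difference 0.84, SE 0.14, limma adjusted p = 0.0015). On the side of rises, Pm20d1, a secreted enzyme that joins amino acids to fatty acids, rose by 1.03 with and 2.28 without rescue (difference -1.25, SE 0.19, limma adjusted p = 6.6e-04).

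In control cells the rescue itself left no called gene. By limma, 2 genes passed the adjusted p (0.0122%), and 6739 had an unadjusted p below 0.05, with a median shift of all genes of -0.123 between rescued and unrescued control cells. No such shift separated the arms of either siRNA comparison, in which the median of all genes was 0.0045 under rescue and -0.011 without.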

How the data were processed

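RNA-seq values of 24 libraries were used as deposited, in 1 table of log2(TPM + 1). Per the study's methods, the authors quantified reads with Salmon against gencode vM20 and summarised them with tximport. The submitters' processing notes name STAR 2.7.8a and Salmon 1.4.0 with a human build, GRCh38, for mouse libraries, and the labels name a poly-A kit where the methods name a total RNA kit; these conflicts were not settled. The deposited log2 values keep no depth, so no count model or counting interval could be used.

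Groups came from the labels. All 24 libraries were fitted with limma 3.58.1 in R 4.3.3 (one mean per group for 8 groups, empirical Bayes moderation, variance trended on level), for genes with a mean of at least 0.5, with Benjamini-Hochberg adjustment over all genes and two-sided tests. Calls needed an adjusted p below 0.01 and over 1.8-fold, and the interaction only the adjusted p. Fold changes are on the log2(TPM + 1) scale, which understates low genes. The script was tested on simulated data. Positions are gencode vM21 on GRCm38, matched by symbol (52259 of 54242).

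The members and gene lists were chosen with earlier results of these data known. Named are Rsl24d1, the 15 largest called rises and falls without overlap (no Gm or Rik symbols, none listed at 0 in an arm), the 5 largest interactions each way, genes called only under rescue, up to 4 members of a list in each direction, and 13 genes the study follows, beside markers of ESCs. The account of 1 such gene is not reported here. The plot of list members shows every called one, and Bbc3 and Mrto4, Psat1, Rgs14 and their neighbours at the threshold are named for their place.

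The alternatives were to add 0.1 or 2 to the TPM instead of 1, to filter at 1.5 or not at all, other samples in the fit, a replicate block, median of ratios scaling, no trend, no fold threshold, the unrescued control arm, and leaving out each library.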

Additional observations from a re-analysis of the deposited data

Results flagged for a closer look

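All results singled out here are differences of the siRNA effect, under rescue minus without, on the log2(TPM + 1) scale, that passed an adjusted p of 0.01 in the limma interaction test. Among genes whose siRNA effect was a fall, the difference was positive for Rsl24d1 (1.45), Mov10 (0.94), Gli2 (0.84) and Hexa (0.43). Among genes that rose, it was negative for Pm20d1 (-1.25), Cpz (-0.92), Ltb4r2 (-0.75), Rtkn (-0.73), Mdm2 (-0.71), Gpx3 (-0.70), Nkx2-9 (-0.62), Scn3b (-0.62), Sytl1 (-0.58), Neurod1 (-0.56) and Cdkn1a (-0.46).

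Predicted or short transcripts gave the most extreme values. Rnu11, a short nuclear RNA, had a fitted difference of -4.34, but it is listed at 0 in all 3 unrescued si-CTL libraries and in 2 of the 3 rescued si-Rsl24d1 libraries. Gm47924 (-2.91) is listed at 0 in all 6 rescued libraries. Gm49858 (-1.21) and Gm6763 (-0.98) rose less under rescue. 2210409E12Rik (1.61) and Gm40977 (1.13) fell without rescue and, at 0.33 and 0.20, did not pass the test under it.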

How the results depend on the processing

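The 224 calls under rescue (193 higher, 31 lower) became 460 (397 and 63) with 0.1 added to the TPM and 2261 (1333 and 928) without the fold threshold, and the unrescued control arm gave 157 higher and 61 lower. The count without rescue, 687, became 1224 and 5008 under the first 2 of these. The count of genes whose effect differs, 343, was 78 with only the day 0 libraries or only the groups compared and 21 with the fold threshold added. Rsl24d1 (-0.50) had a limma adjusted p of 0.014 with only the groups compared, and the effect left (63.2%) was 55.8% with the unrescued control arm. The median shift of -0.123 between rescued and unrescued control cells enters the values from that arm. Leaving out 1 library at a time gave 209 to 257 calls under rescue (178 to 224 higher, 29 to 37 lower), 673 to 728 without, 183 to 301 differing effects, a Rsl24d1 change of -0.60 to -0.43 and an effect left of 59.8% to 64.8%. The count of differing effects moved by over 1.5 times in unrescued cells without si-CTL replicate 2 (206) or si-Rsl24d1 replicate 1 (191) or 3 (183), and in rescued cells without si-CTL replicate 2 (214) or si-Rsl24d1 replicate 1 (200) or 2 (226). With a replicate block the calls under rescue were 225 (194 higher, 31 lower) and the differing effects 254; same-numbered libraries had a mean correlation of deviations of -0.011 over 18 pairs, so the numbers were not taken to pair them. Of 6217 values of named genes under the alternatives, 45 lost their call, 50 gained one and none changed direction with a call. Of 49 lists, 12 had a median that took another sign under some alternative, all with a median no farther than 0.06 from 0, among them the apoptosis, neural and Myc lists. The depth of the libraries is unknown.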
